A study of Mus musculus with 11 samples.

Results

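The 10 genes described here mark Sertoli cells or carry their hormonal output, and were followed in the testis of wild-type mice and of mice lacking iron regulatory protein 1 or 2. The set holds 10 of the 24411 genes of the count table, taken by name: Sox9, Wt1, Gata4, Gata1, Fshr, Inha, Inhbb, Dhh, Clu and Ctsl. The data are RNA-seq read counts from whole decapsulated testes of untreated 20-week-old mice. There were 4 wild-type (WT, C57Bl/6J) libraries, 4 from Irp1-/- mice, in which Aco1, the gene of iron regulatory protein 1, is knocked out in the whole body, and 3 from Irp2-/- mice, in which Ireb2, the gene of iron regulatory protein 2, is knocked out in the whole body. Each library was labelled as a separate sample, so p-values measure the spread between these libraries, and the source of the controls of the Irp2-/- line is not given in the sources used here.

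Sertoli cells are the somatic cells of the seminiferous epithelium that hold, feed and phagocytose around the developing germ cells. Pituitary follicle-stimulating hormone acts on them through its receptor, and they answer with inhibin, which lowers the secretion of that hormone. They also secrete Desert hedgehog, which acts on Leydig and peritubular cells outside the tubule, and many carrier proteins and proteases. Iron regulatory proteins bind iron-responsive elements in messenger RNAs and so adjust the uptake, storage and use of iron.

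Depth ranged from 15902473 to 22451417 counts per library, and in all 15 pairs of replicates the counts differed by more than sampling noise (chi-square over degrees of freedom, 1.97 to 6.75). The targeted genes followed the labels. Aco1 stood at 8.58 ± 0.622 CPM (read counts as a share of the library's total, with the total scaled by edgeR's TMM method, mean ± SD, n = 4) in Irp1-/- against 11.8 ± 1.36 (n = 4) in WT, a log2 fold change of -0.45 with an adjusted p of 0.0158 in edgeR's quasi-likelihood test, so that transcripts of this gene were still counted. Ireb2 stood at 62.2 ± 0.514 CPM (n = 3) in Irp2-/-, a log2 fold change of -1.16 against WT (edgeR, adjusted p = 2.84e-13). All 10 Sertoli cell genes passed the filter on low counts in each comparison. WT replicates 1 and 2 stood apart from WT replicates 3 and 4 in Leydig cell markers, with summed levels of 782 and 751 CPM against 1084 and 1014, so comparisons with WT were also made with WT replicates 3 and 4 alone, a choice made after the data were seen. RNA of whole testis was measured, so fewer cells of a type and less RNA per cell cannot be told apart.

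The Sertoli cell genes spanned a wide range of levels. Per kilobase of annotated exon, Clu, which encodes the secreted chaperone clusterin, was highest in WT at 242 ± 10.7 CPM per kb (SD, n = 4). Ctsl, encoding the protease cathepsin L, followed at 46.0 ± 0.769 CPM per kb, and Inha, the alpha subunit of inhibin, at 43.5 ± 2.62. The ranges of Ctsl and Inha over the 4 WT libraries overlapped, so their order was not resolved on this scale. The length is that of all annotated exons of a gene joined, 6.489 kb for Ctsl and 1.475 kb for Inha. Before division Ctsl stood at 298 CPM and Inha at 64.1 CPM in WT, so orders per kilobase depend on the lengths used. Inhbb, the beta B subunit shared by inhibin B and activin B, stood at 7.39 ± 0.681 CPM per kb and overlapped with Wt1 at 7.27 ± 0.398. Below them came the transcription factors Gata4, at 6.05 ± 0.664, Sox9, at 4.19 ± 0.401, and Gata1, at 3.80 ± 0.352 CPM per kb, of which Sox9 and Gata1 overlapped. Dhh, the ligand Desert hedgehog, stood at 2.70 ± 0.293 and Fshr, the receptor of follicle-stimulating hormone, at 0.768 ± 0.273 CPM per kb. Clu was thus 315-fold above Fshr per kilobase.

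**Figure D1:**
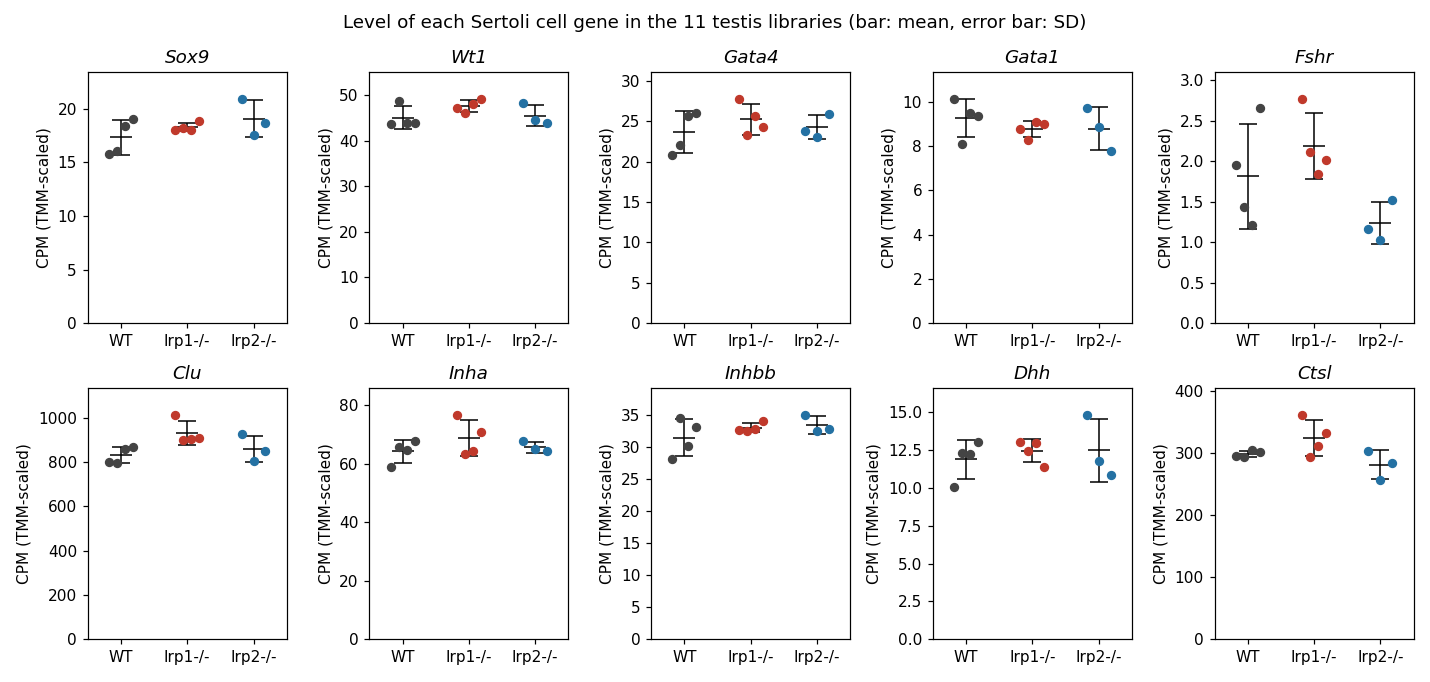
Level of each of the 10 genes in each of the 11 libraries, in TMM-scaled CPM on an axis from 0, by genotype (4 WT, 4 Irp1-/-, 3 Irp2-/-), with points for libraries, horizontal bars for means and error bars for SD. The 4 Irp1-/- libraries of Clu lie at 900 CPM or above and the 4 WT libraries at 868 or below, the 3 Irp2-/- libraries of Fshr lie at 1.53 CPM or below and the 4 Irp1-/- libraries at 1.85 or above, and the libraries of the other 8 genes overlap between genotypes.

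Against WT, Clu took a larger share of the counts in the Irp1-/- testis, in a call that held in 8 of 16 alternatives. None of the other 9 genes passed the threshold of an adjusted p of 0.05. In Irp2-/- against WT none of the 10 genes passed it. Between the genotypes, Fshr was higher in Irp1-/- than in Irp2-/-. The comparisons with WT share the 4 WT libraries, and the comparison between the knockouts uses the same knockout libraries again.

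Clu (chromosome 14, 65968483 to 65981548, plus strand) was counted at 803, 797, 859 and 868 CPM in the WT libraries, at 1013, 900, 906 and 911 CPM in the Irp1-/- libraries, and at 925, 806 and 849 CPM in the Irp2-/- libraries. Every Irp1-/- library lay above every WT library, while 1 Irp2-/- library lay within the Irp1-/- range and 2 within the WT range. The mean was 932 ± 53.8 CPM (SD, n = 4) in Irp1-/- and 832 ± 36.8 (n = 4) in WT, 12.1% higher in the fit. The log2 fold change was 0.16 (SE 0.0414, 95% interval 0.08 to 0.25, edgeR adjusted p = 0.0473). Clu was the 1 gene of 10 called in this comparison, where 1.02% of the 16002 genes tested were called, and the 1 gene whose groups did not overlap, where 6.63% of all genes did not. In Irp2-/- Clu stood at 860 ± 60.4 CPM (n = 3), a log2 fold change of 0.05 from WT (95% interval -0.05 to 0.15, edgeR adjusted p = 0.864), and between Irp1-/- and Irp2-/- the log2 fold change was 0.12 (95% interval 0.01 to 0.23, edgeR adjusted p = 0.274).

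The call on Clu lay at the threshold. It was lost under scaling by total counts (edgeR adjusted p = 0.0762), with all 11 libraries in 1 fit (0.109), when Irp1-/- replicate 1 (0.307) or 6 (0.0587) was left out, and when WT replicate 1 (0.114), 2 (0.187) or 3 (0.0675) was. With WT replicates 3 and 4 alone it was 0.11 on the log2 scale (edgeR adjusted p = 0.370). Over all alternatives, the replicate number as a block included, the log2 fold change stayed between 0.11 and 0.25. The edgeR or DESeq2 adjusted p lay between 1.06e-06 and 0.370. The block fit rests on replicates 1 and 2, the only numbers found in both groups, and not on all libraries. Irp1-/- replicate 1 was the highest library for Clu.

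Fshr spans bases 88984952 to 89200675 of chromosome 17 on the minus strand. Positions here and for the other genes are those of GRCm38, the build of the mm10 files, and each gene is annotated as protein-coding. Its promoter is shown because Fshr is the gene that differed between the knockouts, and because the E-box, a 6-base element bound by basic helix-loop-helix factors, is a known feature of this promoter. The 250 bases before the annotated start, chr17:89200676-89200925 of GRCm38.p6 on the minus strand as given by RefSeq, are printed 5′ to 3′ with the letters CACGTG in capitals.
Fshr promoter: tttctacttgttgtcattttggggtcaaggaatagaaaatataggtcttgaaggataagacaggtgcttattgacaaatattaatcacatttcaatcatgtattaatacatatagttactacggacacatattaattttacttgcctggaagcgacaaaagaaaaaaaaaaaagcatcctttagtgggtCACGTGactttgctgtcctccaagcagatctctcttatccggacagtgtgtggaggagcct
The capitals begin 61 bases before the start. CACGTG was found on either strand in 6.02% of the 32851 promoter windows of the same length. The other motifs searched on both strands were AGATAA for GATA factors, in 9.99% of windows, ACAAAG or ACAATG for SOX factors, in 25.2%, and TGACG, the cyclic AMP response element half-site, in 17.8%. None of these 3 was found in the Fshr window, which says only that the letters are absent there. Windows were given for 6 of the 10 genes, and Gata1, Inha, Inhbb and Dhh had no match to any of the 4 motifs, whereas the Ctsl window held CACGTG and ACAATG.

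Fshr was counted at 1.96, 1.43, 1.21 and 2.65 CPM in WT, at 2.77, 2.11, 1.85 and 2.01 CPM in Irp1-/-, and at 1.16, 1.03 and 1.53 CPM in Irp2-/-. All Irp1-/- libraries lay above all Irp2-/- libraries, and the WT libraries reached over both. The mean was 2.19 ± 0.406 CPM (SD, n = 4) in Irp1-/- and 1.24 ± 0.259 (n = 3) in Irp2-/-, a 1.77-fold difference in the fit with a log2 fold change of 0.83 (SE 0.225, 95% interval 0.36 to 1.29, edgeR adjusted p = 0.0365). Fshr was the 1 gene of 10 called between the knockouts, against 4.69% of the 16281 genes tested, and the 1 gene whose groups did not overlap, against 15.2%. Its level in WT was 1.81 ± 0.644 CPM (n = 4). Against WT the log2 fold change was 0.26 in Irp1-/- (95% interval -0.19 to 0.71, edgeR adjusted p = 0.691) and -0.56 in Irp2-/- (95% interval -1.13 to 0.01, edgeR adjusted p = 0.543).

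These values rest on 20 to 53 reads per library, the fewest of the set. The call was lost with DESeq2 (adjusted p = 0.111), with all 11 libraries in 1 edgeR fit (0.0551), and without Irp1-/- replicate 1 (0.152) or 2 (0.0664) or Irp2-/- replicate 1 (0.0996) or 2 (0.185). The adjusted p ranged from 0.00467, with the replicate number as a block, to 0.185 over all alternatives. The log2 fold change ranged from 0.69 to 1.16. The block fit rests on replicates 1 and 2, the only numbers found in both knockouts. Per Sox9 read, the ratio of Fshr was 0.120 ± 0.0234 (SD, n = 4) in Irp1-/-, 0.0652 ± 0.0144 (n = 3) in Irp2-/- and 0.105 ± 0.0333 (n = 4) in WT. Between the knockouts this ratio differed by 0.88 on the log2 scale with an exact permutation p of 0.0286, two-sided, the smallest that 4 against 3 libraries allow, and 0.172 after adjustment over 6 ratio comparisons.

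**Figure D2:**
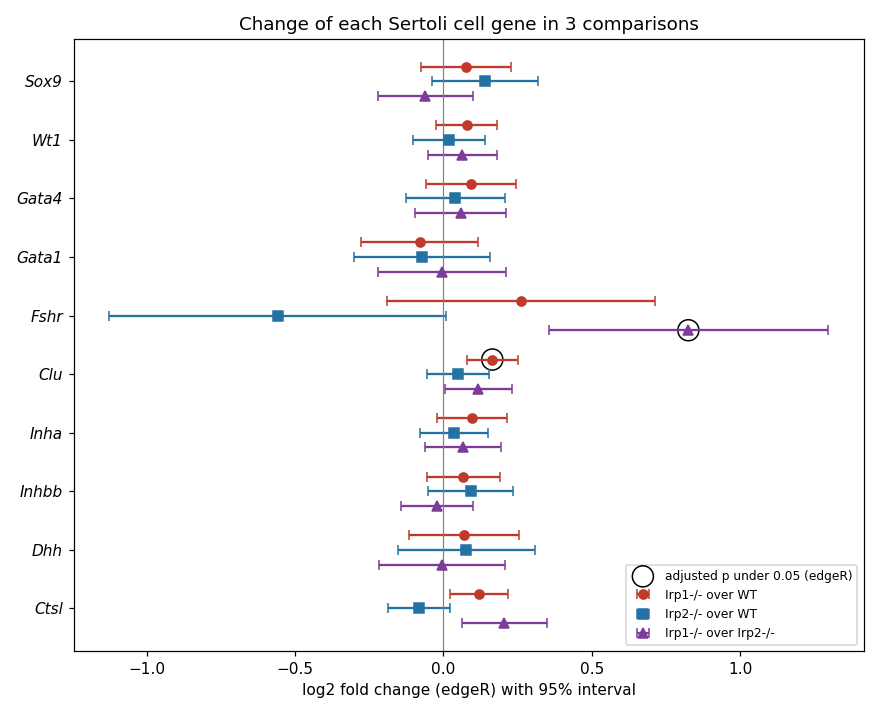
Log2 fold change of each of the 10 genes with its 95% interval, from edgeR, in Irp1-/- over WT (red circles), Irp2-/- over WT (blue squares) and Irp1-/- over Irp2-/- (purple triangles), with a black ring at an adjusted p under 0.05. Clu in Irp1-/- over WT, at 0.16, and Fshr in Irp1-/- over Irp2-/-, at 0.83, carry a ring, and the Fshr intervals are the widest of the set.

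Ctsl (chromosome 13, 64361890 to 64370772, minus strand), whose protease acts in lysosomes and is secreted by Sertoli cells at defined stages, was counted at 295, 294, 304 and 301 CPM in WT, at 361, 293, 311 and 332 CPM in Irp1-/-, and at 304, 257 and 283 CPM in Irp2-/-. The WT libraries lay close together, 3 of the 4 Irp1-/- libraries lay above all of them and 1 just below. The log2 fold change was 0.12 in Irp1-/- over WT (95% interval 0.02 to 0.22, edgeR adjusted p = 0.288), -0.08 in Irp2-/- over WT (95% interval -0.19 to 0.02, edgeR adjusted p = 0.700) and 0.21 in Irp1-/- over Irp2-/- (95% interval 0.06 to 0.35, edgeR adjusted p = 0.103). The difference between the knockouts passed the threshold with all 11 libraries in 1 fit (edgeR adjusted p = 0.0453) and without Irp1-/- replicate 2 (0.0393) or Irp2-/- replicate 1 (0.0494). It also passed with the replicate number as a block (0.0132), a fit that rests on replicates 1 and 2. The adjusted p ranged up to 0.406 over all alternatives.

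The transcription factors of Sertoli cell identity did not pass the threshold in any comparison. Sox9 (chromosome 11, 112782210 to 112787757, plus strand), which starts and maintains Sertoli cell differentiation, stood at 15.8, 16.03, 18.4 and 19.1 CPM in WT, at 18.05, 18.2, 18.1 and 18.9 CPM in Irp1-/-, and at 20.9, 17.5 and 18.7 CPM in Irp2-/-. The Irp1-/- libraries of Sox9 lay within the WT range, and 1 Irp2-/- library lay above it. The log2 fold change of Sox9 was 0.08 in Irp1-/- (95% interval -0.08 to 0.23) and 0.14 in Irp2-/- over WT (95% interval -0.04 to 0.32), with edgeR adjusted p of 0.748 and 0.702. Wt1 (chromosome 2, 105126529 to 105173614, plus strand), which keeps the Sertoli cell fate in the adult testis, stood at 43.7, 48.7, 43.9 and 43.9 CPM in WT, at 47.2, 46.0, 47.9 and 49.1 CPM in Irp1-/-, and at 48.2, 44.4 and 43.8 CPM in Irp2-/-. Only WT replicate 2 placed a WT library among those of Irp1-/-, and the log2 fold change of 0.08 (95% interval -0.02 to 0.18) had an edgeR adjusted p of 0.571. Irp2-/- differed from WT in Wt1 by a log2 fold change of 0.02 (95% interval -0.10 to 0.14, edgeR adjusted p = 0.966).

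Gata4 (chromosome 14, 63198914 to 63271712, minus strand), a regulator of gonadal somatic genes that Leydig cells also express, averaged 23.6 ± 2.59 CPM (SD, n = 4) in WT, 25.2 ± 1.94 (n = 4) in Irp1-/- and 24.3 ± 1.504 (n = 3) in Irp2-/-. Gata1 (chromosome X, 7959260 to 7976663, minus strand), a GATA factor that Sertoli cells express in a stage-dependent way, averaged 9.26 ± 0.859 CPM in WT, 8.78 ± 0.360 in Irp1-/- and 8.79 ± 0.963 in Irp2-/-. All 3 groups overlapped for both genes. Gata1 was the 1 gene of the set with a log2 fold change below 0 in Irp1-/- over WT, at -0.08 (95% interval -0.28 to 0.12), and in Irp2-/- over WT it was -0.07 (95% interval -0.30 to 0.16).

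The inhibin subunits and Desert hedgehog did not pass the threshold either. Inha (chromosome 1, 75507077 to 75510366, plus strand), also expressed in Leydig cells, was counted at 58.7, 65.5, 64.4 and 67.8 CPM in WT, at 76.5, 63.1, 64.3 and 70.6 CPM in Irp1-/-, and at 67.7, 64.9 and 64.1 CPM in Irp2-/-. Irp1-/- replicates 1 and 7 lay above all WT libraries and WT replicate 1 lay below all others. The log2 fold change of Inha was 0.10 in Irp1-/- over WT (95% interval -0.02 to 0.22, edgeR adjusted p = 0.545) and 0.04 in Irp2-/- over WT (95% interval -0.08 to 0.15, edgeR adjusted p = 0.931). Inhbb (chromosome 1, 119415463 to 119422248, minus strand) was counted at 28.1, 34.5, 30.1 and 33.1 CPM in WT, at 32.6, 32.5, 32.7 and 34.0 CPM in Irp1-/-, and at 35.0, 32.5 and 32.7 CPM in Irp2-/-. Its knockout libraries lay in a narrow band inside or just above the spread of WT. The log2 fold change of Inhbb was 0.07 in Irp1-/- (95% interval -0.06 to 0.19, edgeR adjusted p = 0.714) and 0.09 in Irp2-/- over WT (95% interval -0.05 to 0.23, edgeR adjusted p = 0.786).

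The number of Inhbb reads per Inha read was 0.490 ± 0.0259 (SD, n = 4) in WT, 0.483 ± 0.0407 (n = 4) in Irp1-/- and 0.509 ± 0.00752 (n = 3) in Irp2-/-. The exact two-sided permutation p was 0.771 for Irp1-/- and 0.286 for Irp2-/- against WT, and 0.371 between the knockouts. Dhh (chromosome 15, 98881615 to 98898562, minus strand) averaged 11.9 ± 1.29 CPM in WT, 12.4 ± 0.754 in Irp1-/- and 12.5 ± 2.07 in Irp2-/-, with log2 fold changes of 0.07 (95% interval -0.12 to 0.25) and 0.08 (95% interval -0.15 to 0.31) against WT. Dhh shares 546 bases of annotated sequence on the same strand with Rhebl1, so reads from there cannot be assigned to either gene with certainty.

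As a set, 9 of the 10 genes had a log2 fold change above 0 in Irp1-/- over WT, where 49.7% of all genes tested did. With WT replicates 3 and 4 alone, 6 of 10 were above 0 in Irp1-/- and 3 of 10 in Irp2-/-, with medians of 0.06 and -0.01 and 0 called in either. With all 4 WT libraries the median in Irp1-/- was 0.09, against -0.000787 for all genes. In Irp2-/- over WT, 7 of 10 were above 0, against 51.3% of all genes, with a median of 0.04, and 0 of 10 had groups that did not overlap, against 9.23%. In that comparison 0 of 10 were called by edgeR (1.21% of the 16154 genes tested were called), by DESeq2 or at an unadjusted p under 0.05 (9.42% of all genes). In Irp1-/- over Irp2-/-, 6 of 10 were above 0, against 49.4%, and the median was 0.06. Between the knockouts the log2 fold changes of Sox9, Wt1, Gata4, Gata1, Inha, Inhbb and Dhh lay from -0.06 (Sox9) to 0.06 (Inha), with edgeR adjusted p of 0.649 to 0.993. At an unadjusted p under 0.05, 2 of 10 genes, Clu and Ctsl, were reached in Irp1-/- over WT, against 12.1% of all genes, and 3 of 10, these and Fshr, between the knockouts, against 16.3%.

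The libraries differed among themselves within a genotype. WT replicate 1 was the lowest of all 11 libraries for 6 of the 10 genes, and Irp1-/- replicate 1 the highest for 5. Irp2-/- replicate 1 was the highest for 3 genes and lay above the median of all libraries in 8 of 10, whereas Irp2-/- replicates 2 and 3 did so in 0 and 2. The median of the 10 genes' log2 CPM, taken from the WT mean of each gene, ran from -0.09 to 0.08 in WT, from 0.04 to 0.19 in Irp1-/- and from -0.02 to 0.09 in Irp2-/-.

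**Figure D3:**
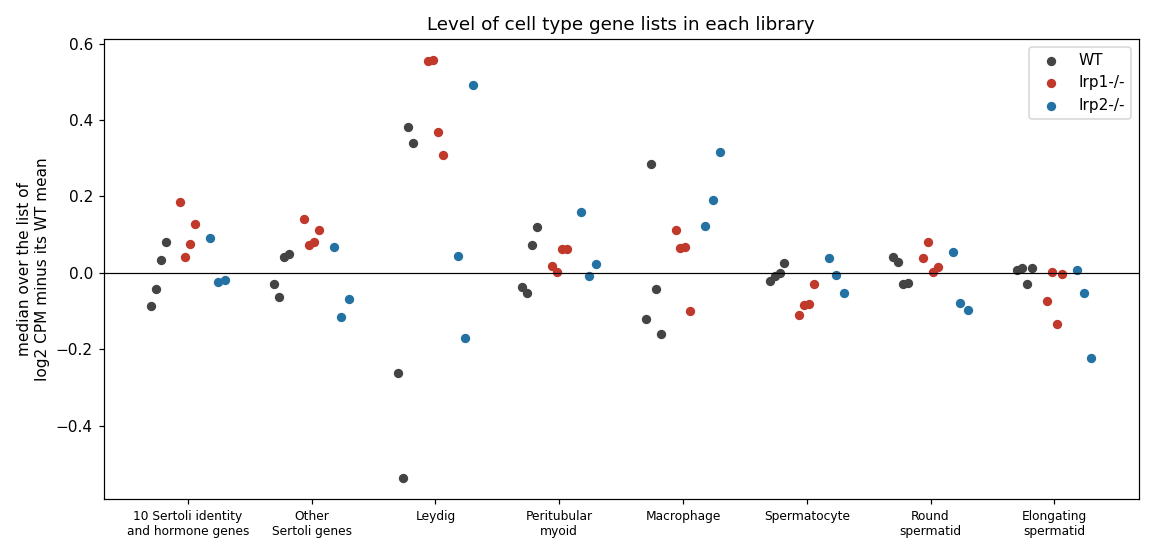
Median over each gene list of log2 CPM minus the gene's WT mean, for each library (points), by genotype (4 WT, 4 Irp1-/-, 3 Irp2-/-), with 0 as the WT level. For the 10 genes the libraries run from -0.09 to 0.19, for the Leydig list from -0.54 to 0.56, and for the spermatocyte list the Irp1-/- libraries run from -0.11 to -0.03 and the WT libraries from -0.02 to 0.03.

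Markers of other cell types also differed in level between the libraries, although few passed the test. The 8 Leydig cell markers had a median log2 fold change of 0.39 in Irp1-/- over WT. Of the 8, 7 were above 0 and 1 was called, against 49.7% and 1.02% of all genes. Their summed level was 1014 to 1209 CPM in Irp1-/-, 780 to 1028 in Irp2-/- and 751 to 1084 in WT. The median of the list lay at -0.26 and -0.54 in WT replicates 1 and 2 and at 0.38 and 0.34 in WT replicates 3 and 4, against 0.31 to 0.56 in Irp1-/-, on the log2 scale relative to the WT mean. With WT replicates 3 and 4 alone the median log2 fold change was 0.11, with 6 of 8 above 0 and 1 called. The 8 spermatocyte markers had a median of -0.08 with 7 of 8 below 0 and 0 called, and summed to 1398 to 1424 CPM in Irp1-/- against 1457 to 1529 in WT. In Irp2-/- the spermatocyte markers summed to 1442 to 1497 CPM, with 5 of 8 below 0 against WT. The 8 elongating spermatid markers, with 0 called, summed to 19879 to 22846 CPM in Irp1-/-, 17843 to 21595 in Irp2-/- and 21034 to 21914 in WT. Against WT, 6 of these 8 were below 0 in Irp1-/- and 8 in Irp2-/-, with medians of -0.05 and -0.10. No Leydig or spermatocyte marker was at 0. Their part in the values of the Sertoli cell genes was not tested.

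Of the 28 other genes known from Sertoli cells, 26 passed the filter on low counts. In Irp1-/- over WT, 21 of 26 had a log2 fold change above 0, with a median of 0.10, and 12 reached an unadjusted p under 0.05, all of them higher, against 6.69% of all genes. With WT replicates 3 and 4 alone, 18 of 26 were above 0 and the median was 0.05. Eppin, encoding a secreted protease inhibitor, was the 1 gene called (0.581% of all genes were called as higher). Defb19 was called in alternatives only: without a count filter, with at least 10 counts in every sample, with the block and without Irp1-/- replicate 2. Eppin stood at 23.8, 21.002, 18.6 and 20.02 CPM in WT, and at 29.5, 25.3, 23.5 and 26.4 CPM in Irp1-/-. There 3 of the 4 libraries lay above all WT libraries. The call on Eppin held in 10 of 16 alternatives, WT replicates 3 and 4 alone among them. Its log2 fold change was 0.32 (SE 0.0770, edgeR adjusted p = 0.0350), which was lost when Irp1-/- replicate 1 (0.221) or 7 (0.0653) was left out, and when WT replicate 2 (0.0968), 3 (0.132) or 4 (0.113) was, and with the replicate number as a block (0.0581), in a range of 0.00661 to 0.221 over all alternatives. In Irp2-/- over WT, 11 of 26 were above 0, the median was -0.01 and 0 were called by edgeR, with 1 higher and 1 lower at an unadjusted p under 0.05 and 0 called by DESeq2. Trf, encoding the iron carrier transferrin, had the lower value of these, a log2 fold change of -0.38 (SE 0.0991, edgeR adjusted p = 0.0601). It passed the threshold under RLE scaling (0.0475), without a count filter (0.0287), with all 11 libraries in 1 fit (0.0451) and without Irp2-/- replicate 1 (0.0376) or WT replicate 1 (0.0257), within a range of 0.0257 to 0.338 over all alternatives.

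Between the knockouts, 6 of the 26 genes were higher in Irp1-/- and 0 lower (2.92% of all genes were called as higher). They were Amh, the anti-Müllerian hormone, with a log2 fold change of 0.86 (edgeR adjusted p = 0.0366), Trf with 0.37 (0.0227), Rhox5, an androgen-regulated homeobox factor, with 0.36 (0.0394), Eppin with 0.33 (0.0166), Nr5a1, the steroidogenic factor shared with Leydig cells, with 0.24 (0.0369), and the cystatin Cst9 with 0.19 (0.0470). Trf stood at 19.04, 15.2, 16.2 and 16.8 CPM in Irp1-/-, at 14.2, 11.6 and 13.1 in Irp2-/- and at 14.9, 16.96, 16.2 and 19.9 in WT. All Irp2-/- libraries of Trf lay below all others. Amh, with 20 to 56 reads per library, stood at 2.93, 1.71, 1.90 and 2.20 CPM in Irp1-/- and at 1.20, 1.03 and 1.37 in Irp2-/-. Without Irp2-/- replicate 2 none of the genes of the 6 lists described here was called between the knockouts, and without Irp1-/- replicate 1 the called genes of this list were lost. DESeq2 did not call Amh (adjusted p = 0.0995), Rhox5 (0.0698) or Nr5a1 (0.0744), and under total-count scaling Rhox5 (edgeR adjusted p = 0.0508), Cst9 (0.0678) and Nr5a1 (0.0615) were lost. Of 14 alternatives, the call held in 12 for Trf, 11 for Eppin, 9 for Amh, 7 for Rhox5, 7 for Nr5a1 and 6 for Cst9. A higher level in Irp1-/- than in Irp2-/- was not particular to Sertoli cell genes. Of the 8 Leydig markers, 8 were above 0 (49.4% of all genes were), with a median of 0.24, 2 called higher and 0 lower. Of 8 round spermatid markers 8 were above 0, and of 8 spermatocyte markers 1, with 0 called in either list.

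**Figure D4:**
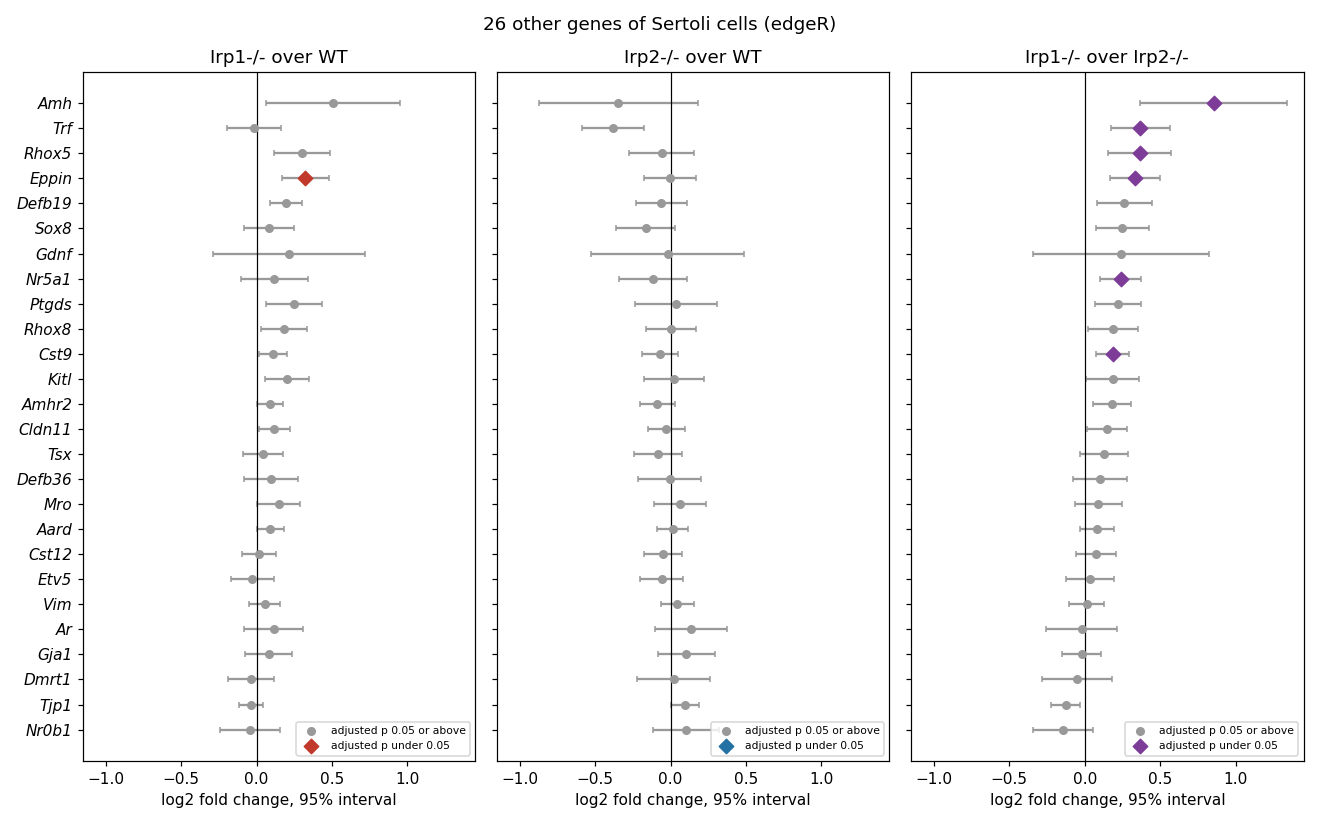
Log2 fold change with its 95% interval, from edgeR, of the 26 other Sertoli cell genes tested, in Irp1-/- over WT (left), Irp2-/- over WT (middle) and Irp1-/- over Irp2-/- (right), ordered by the right panel, with coloured diamonds at an adjusted p under 0.05. The left panel has 1 diamond, Eppin at 0.32, the middle panel has 0 and the right panel has 6, from Cst9 at 0.19 to Amh at 0.86.

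The pathways around the hormone genes were mostly not called. Of the 15 inhibin and activin pathway genes tested, 0 were called in any of the 3 comparisons. With the replicate number as a block, Acvr1 was called in Irp1-/- over WT, and Acvr1 and Fst between the knockouts. Smad3 was called between the knockouts without Irp1-/- replicate 1. The genes of this list with the highest levels were the receptor Acvr2a, the signal transducer Smad2, the co-receptor Tgfbr3 and the protease Furin. Their log2 fold changes in Irp1-/- over WT were -0.12, 0.04, -0.05 and -0.03. Of the 15 Hedgehog pathway genes, 0 were called either, and Sufu, Scube2 and Kif7 had log2 fold changes of -0.07, 0.00 and 0.09 in the same comparison. Ptch1 of this list averaged 7.83 ± 0.707 CPM (SD, n = 4) in Irp1-/-, 7.97 ± 0.665 (n = 3) in Irp2-/- and 6.22 ± 1.19 (n = 4) in WT. It was called only in Irp1-/- over WT with the replicate number as a block. At an unadjusted p under 0.05, edgeR reached 0, 3 and 2 of the inhibin and activin genes and 1, 3 and 1 of the Hedgehog genes in Irp1-/- over WT, Irp2-/- over WT and Irp1-/- over Irp2-/-, of 15 genes in each list, against 12.1%, 9.42% and 16.3% of all genes.

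Of the 15 genes of signalling below the follicle-stimulating hormone receptor that were tested, Prkar2a, a regulatory subunit of protein kinase A, was the 1 gene called as lower in Irp1-/- over WT (0.444% of all genes were), at 315 CPM against 360 CPM, a log2 fold change of -0.19 (SE 0.0406, edgeR adjusted p = 0.0143). The call was lost when Irp1-/- replicate 1 (0.124) or 6 (0.0559) was left out, and when WT replicate 2 (0.0609) was, and with WT replicates 3 and 4 alone (0.0886), in a range of 0.000952 to 0.124 over all alternatives. Prkar2a was also lower in Irp2-/- than in WT, at 326 CPM, with every Irp2-/- library below every WT library. That log2 fold change of -0.14 was not called (edgeR adjusted p = 0.204). Between the knockouts the log2 fold change of Prkar2a was -0.05 (edgeR adjusted p = 0.735). Which cells of the testis held this transcript was not tested. Of the 18 gonadal transcription factors, Gata2 (log2 fold change 0.33, edgeR adjusted p = 0.00751) and Nr5a1 were higher and Emx2 (-0.37, 0.0317) and Six4 (-0.76, 0.0334) lower in Irp1-/- than in Irp2-/-, and 0 were called against WT. With the replicate number as a block, Nr5a1 was called as higher in Irp1-/- over WT (edgeR adjusted p = 0.000333). As lower, 1.76% of all genes were called between the knockouts. Of 14 alternatives the call held in 13 for Gata2, lost without Irp2-/- replicate 2 (0.0726), and in 7 each for Emx2 and Six4, both lost with DESeq2 (0.0756 and 0.0794). Of the 18 genes in a list of lysosomal proteins, relatives of Ctsl among them, and cystatins, 16 were above 0 in Irp1-/- over WT. This compares with 49.7% of all genes, and the median was 0.14. At an unadjusted p under 0.05, 8 of the 18 were reached, all higher, against 6.69% of all genes as higher, but 0 were called. Ctsh of this list was called with DESeq2, under RLE scaling, without a count filter and with at least 10 counts in every sample. It was also called without WT replicate 3 or 4, and with the replicate number as a block, there in Irp2-/- over WT too. Cst3 was called in Irp1-/- over WT with the block (edgeR adjusted p = 1.33e-06) and without WT replicate 4 (0.0229). With WT replicates 3 and 4 alone 14 of 18 were above 0 and the median was 0.08. Between the knockouts 2 of them, Cst3 (log2 fold change 0.21, edgeR adjusted p = 0.0487) and Cst9, were higher in Irp1-/-, and the call on Cst3 held in 5 of 14 alternatives, being lost under total-count scaling (0.0793).

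Over the 11 libraries, the profile most like the mean of the 10 genes' standardised log2 CPM was that of Gatm, an enzyme of creatine synthesis (Pearson r = 0.946), followed by the lysosomal protease Ctsd (0.940), the transcription factor Foxo3 (0.930), Tmed3 (0.924) and Dmrtc1a (0.911), among 16423 genes. Of the 10 genes themselves, which make up that mean, Clu (0.910) and Inha (0.853) were most like it, and Fshr (0.432) and Gata1 (0.0794) least. These are descriptions over libraries that share 3 genotypes and their scaling.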

How the data were processed

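RNA-seq read counts per gene, not normalized, were deposited by the authors for 11 libraries: poly(A) RNA, a stranded Illumina kit, bcl2fastq 2.20.0.422 per the submitters' processing notes, and the nf-core RNA-seq pipeline with mm10. The counting tool is not given in the sources used here, so the whole numbers may be rounded estimates. Groups came from the sample labels. The names of the libraries end in L, or in R for the sixth Irp1-/- mouse only, and what this marks is not stated.

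Each pair of groups was fitted alone in edgeR 4.0.16 (R 4.3.3) with filterByExpr, TMM scaling and the quasi-likelihood F test, with Benjamini-Hochberg adjustment over all genes tested and a threshold of 0.05. Intervals are at 95%. Log2 CPM used a prior count of 2. Lengths and positions came from the GRCm38 annotation and promoters from RefSeq. Ratios were tested by exact two-sided permutation. The method was tested on simulated data with planted changes larger than most of those reported here. Changes as small as that of Clu against WT were not covered. Alternatives were other scalings, filters, DESeq2 1.42.0, all 11 libraries in 1 fit, the replicate number as a block and leaving out each library. A further alternative, WT replicates 3 and 4 alone, was chosen after seeing the data. Irp1-/- shares only replicate numbers 1 and 2 with WT and Irp2-/-, so its block fits rest on those libraries.

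The 10 genes and all lists were chosen with earlier results of these data known. Named genes were all 10, each list gene called in any comparison, otherwise the 4 of highest mean CPM in a list (1 of these is not reported here), and the 5 genes most like the set. Ctsh, Defb19, Ptch1, Acvr1, Fst and Smad3 are named for calls in alternatives only. Other list genes called in alternatives only were Ptgds, Ctsb, Cldn11, Gja1, Gnas, Kitl, Pde4d, Psap, Lgmn, Sox10, Amhr2, Lamp2 and Cst8. Grk2 was not found under that symbol.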

Additional observations from a re-analysis of the deposited data

Results flagged for a closer look

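In 3 of 20 groups of 4 libraries, 1 library lay apart from the other 3 by more than Dixon's criterion allows, where chance gives about 1. Irp1-/- replicate 7 had a Sox9 level of 18.9 CPM, with the others at 18.05 to 18.2. WT replicate 2 had a Wt1 level of 48.7 CPM, with the others at 43.7 to 43.9. Irp1-/- replicate 1 had a Clu level of 1013 CPM, with the others at 900 to 911. The effects of the 2 knockouts on Fshr differed by 0.83 on the log2 scale (edgeR adjusted p = 0.0365), Irp1-/- being the higher.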

How the results depend on the processing

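Of the 10 genes, 1 was called in Irp1-/- over WT, and 0 under total-count scaling or with all 11 libraries in 1 fit. Between the knockouts 1 was called, 0 with DESeq2 and 2 with the replicate block. Leaving out 1 library gave 0 to 1 in both comparisons. Of all genes, 55 to 216 were called in Irp1-/- over WT without 1 library, 118 to 223 in Irp2-/- over WT and 414 to 763 between the knockouts. Of the 6 lists, 4 genes were called in Irp1-/- over WT without a count filter and 4 with at least 10 counts in every sample (0 to 4 without 1 library). In Irp2-/- over WT it was 1 gene under RLE scaling, without a filter, with all 11 libraries and with the block (0 to 1 without 1 library), and between the knockouts 6 under total-count scaling and 5 with DESeq2 (0 to 13 without 1 library).

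The labels do not say whether replicate numbers pair the samples. Same-numbered libraries correlated by -0.00908 to 0.0772 in their deviations. In some cases the same-numbered library was the best match and in others it was not, so this cannot settle whether the samples are paired. With the replicate block, 439 genes and 15 list genes were called in Irp1-/- over WT, the median of the 10 genes was 0.174, and the log2 fold change changed sign, uncalled, for Trf (0.0979), Furin (0.0632) and Scube2 (-0.145), for Cst3 in Irp2-/- over WT (0.068) and for Tgfbr3 between the knockouts (-0.0491). The block ended the call on Eppin in Irp1-/- over WT (edgeR adjusted p = 0.0581). It newly called Cst3 (log2 fold change 0.337, edgeR adjusted p = 1.33e-06) and Nr5a1 (0.381, 0.000333) there. Between the knockouts it called Ctsl (0.0132) and ended the calls on Cst9 (0.228), Emx2 (0.0524), Six4 (0.251) and Cst3 (0.0688). In both comparisons the block fit rests on replicates 1 and 2, the only numbers that Irp1-/- shares with the other genotype. With WT replicates 3 and 4 alone, chosen after seeing the data, 0 of the 10 genes and 1 list gene were called in Irp1-/- over WT, and 88 of all genes in Irp2-/- over WT. Signs then changed, uncalled, in Irp1-/- over WT for Sox9 (-0.0348), Gata4 (-0.0316), Dhh (-0.0137) and Nr5a1 (-0.0723), and in Irp2-/- over WT for Gata4 (-0.0881), Clu (-0.00332), Inha (-0.00924), Dhh (-0.00839), Rhox5 (0.0555) and Eppin (0.107). Total-count scaling turned Eppin (0.0143) and Cst3 (0.0144) in Irp2-/- over WT. The other sign changes came from leaving out 1 library, all in uncalled values. In Irp1-/- over WT the log2 fold change then ranged from -0.194 to 0.033 for Tgfbr3, -0.0818 to 0.0686 for Trf, -0.0402 to 0.0591 for Scube2, -0.00248 to 0.117 for Dhh, and -0.0696 to 0.00766 for Furin. In Irp2-/- over WT it ranged from -0.0257 to 0.0554 for Wt1, -0.00483 to 0.0974 for Clu, -0.0698 to 0.159 for Dhh, -0.156 to 0.00441 for Rhox5, -0.0775 to 0.0636 for Eppin, -0.0704 to 0.0714 for Cst3, -0.0196 to 0.0903 for Gata4, -0.152 to 0.0357 for Kif7, -0.00719 to 0.0642 for Inha and -0.0104 to 0.0513 for Sufu. Between the knockouts it ranged from -0.0764 to 0.0752 for Gata1, -0.0867 to 0.142 for Dhh, -0.12 to 0.0137 for Sox9, -0.0422 to 0.014 for Inhbb and -0.0116 to 0.0453 for Furin. The log2 difference of the Inhbb to Inha ratio in Irp1-/- over WT ranged from -0.0562 to 0.0349, and that of Fshr to Sox9 between the knockouts from 0.754 to 1.05. The cause was not tested. Fshr rests on 20 to 53 reads per library and Amh on 20 to 56.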
